A study of Mus musculus with 24 samples.

Results

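The 10 genes described here are Myc, Ccnd1, Ccnd2, Ccne1, Ccne2, E2f1, Cdc6, Mcm2, Mki67 and Top2a, taken by symbol from the 50657 gene symbols counted in mouse liver after an acetaminophen overdose. Bulk polyA RNA of single livers was sequenced on an AVITI instrument. KO mice carry a hepatocyte-specific knockout of Egfr, which encodes the receptor of epidermal growth factor, and WT mice are wild type. All are mice of an experiment with 500 mg/kg acetaminophen (APAP), a drug that injures hepatocytes, with livers taken at 0, 1, 3 and 12 h and 3 mice for each genotype and time, 8 groups and 24 libraries. The labels give neither strain, age nor the Cre line, and they do not say whether the 0 h mice had received drug or vehicle. Livers at 6 and 24 h, which the series text names, are not analysed here. No mice without the drug at 1, 3 or 12 h were analysed here, so effects of the drug, of the hour and of handling cannot be told apart. A hepatocyte knockout leaves Egfr in the other liver cells. The question put to these genes was whether signs of entry into the cell cycle were present by 12 h, and for which of the genes the depth allows an answer.

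An adult hepatocyte rests outside the cell cycle and can re-enter it after injury. In outline, immediate early genes and Myc are switched on first, D-type cyclins and their kinases then carry the cell through G1 by phosphorylating RB proteins, and E2F factors released from RB switch on E-type cyclins and the genes that license and copy DNA. Mki67 and Top2a follow in S, G2 and mitosis, and the receptor for epidermal growth factor is one of the inputs known to push hepatocytes through G1.

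Depth decides how much can be said. Gene counts per library were 3.54 to 7.58 M, of which 1.75 to 4.37 M lay outside mitochondrial ribosomal RNA. Outside that RNA the 12 h libraries of both genotypes were the shallowest, and 10 counts stood for 2.46 to 3.49 CPM at 12 h (CPM, TMM-scaled counts for each M of gene counts). Mitochondrial ribosomal RNA took 44.8% to 50.4% of gene counts at 12 h. Egfr was 43.0 to 335 CPM in KO libraries and 203 to 633 CPM in WT libraries. The library labelled KO 1 h replicate 1, at 335 CPM, lay above the lowest WT 1 h library at 332 CPM, which goes against its label.

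Of the 10 genes, 6 passed the low-count filter and were tested: Myc, Ccnd2, Ccne2, E2f1, Mki67 and Top2a. Ccnd1, Ccne1, Cdc6 and Mcm2 did not pass it and are too low to judge in the unstranded counts used for the main tests. Summed over the 24 libraries they had 108, 103, 45 and 113 counts, against 1353 for Myc, 602 for Ccnd2, 495 for Mki67 and 350 for Ccne2. E2f1, with 129 counts, and Top2a, with 132, were tested on few counts: no group of E2f1 libraries averaged 10, and for Top2a WT 3 h livers alone did. Per kilobase of exon, with exon lengths from GENCODE M21 on GRCm38, Myc was the most abundant of the 10 at 12 h, at 13.4 CPM per kb in KO livers and 12.0 CPM per kb in WT livers, and no group mean of the other 9 exceeded 0.922 CPM per kb.

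Myc, the transcription factor that opens the growth program of G1, was higher at 12 h in both genotypes. The gene lies on chromosome 15, and 99.6% of its strand-assigned counts were on its own strand. At 12 h Myc was at 44.0, 29.2 and 36.3 CPM in the KO livers, against 3.32, 7.91 and 5.22 CPM in the KO livers at 0 h. In WT livers it was at 30.998, 33.1 and 33.5 CPM at 12 h, against 3.35, 6.31 and 4.66 CPM at 0 h. Every 12 h liver of both genotypes lay above every liver of the earlier times, and the ranges did not overlap. Among all tested genes, 41.1% had 12 h and 0 h ranges apart in KO and 39.9% in WT. The log2 fold change from 0 h was 2.72 (SE 0.26) in KO and 2.81 (SE 0.27) in WT, with adjusted p = 1.07e-08 and 1.19e-08 in edgeR's quasi-likelihood test. Pooled counts put these changes at 6.55-fold in KO (95% interval 5.30 to 8.14) and 7.17-fold in WT (5.68 to 9.14), intervals that, like all those from pooled counts here, cover counting error only.

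Myc stayed low until 3 h. At 1 h it was at 2.61, 5.81 and 7.78 CPM in KO and 2.95, 2.71 and 3.31 CPM in WT, and at 3 h it was at 8.10, 5.66 and 8.71 CPM in KO and 7.16, 5.08 and 5.21 CPM in WT. None of the changes at 1 h or 3 h passed the test, and the widest of them was a log2 fold change of -0.63 in WT at 1 h (adjusted p = 0.324, edgeR). From 3 h to 12 h Myc rose by a log2 fold change of 2.25 (SE 0.25, adjusted p = 5.40e-07) in KO and 2.46 (SE 0.26, adjusted p = 2.05e-07) in WT. The rise to 12 h, counted from 0 h or from 3 h, passed under each alternative of processing and with each library of the groups compared left out in turn.

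**Figure D1:**
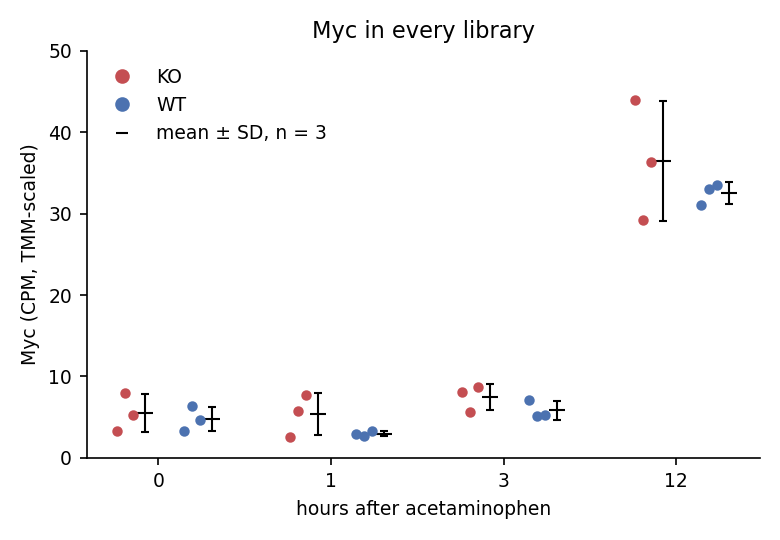
Myc in CPM (vertical axis) at 0, 1, 3 and 12 h (horizontal axis), 1 point per liver, KO left of WT at each time, with mean ± SD of 3 livers. The 12 h livers lie between 29.2 and 44.0 CPM and those of the earlier times between 2.61 and 8.71 CPM.

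Myc did not pass a test between the genotypes at 12 h, at 36.5 ± 7.37 CPM in KO and 32.5 ± 1.32 CPM in WT (SD, n = 3 each) and overlapping ranges. The log2 difference was 0.16 with a 95% interval of -0.31 to 0.63, while the change since 0 h differed by -0.09 (KO minus WT) with an interval of -0.88 to 0.70. At 1 h Myc was higher in KO than in WT by 0.90 on the log2 scale, which did not pass (unadjusted p = 0.0114, adjusted p = 0.30, edgeR). It passed without the library labelled KO 1 h replicate 1 (log2 1.19, adjusted p = 0.0459) and with no low-count filter (log2 0.89, adjusted p = 0.0441), and with that library in, the ranges of the genotypes overlapped.

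The pattern of Myc over the libraries was followed most closely by Mideas, Mdm2, Txnrd1, Ier3 and Slc16a6. Pearson's r of log2 expression with Myc over the 24 libraries was 0.949 for Mideas, 0.944 for Mdm2, 0.939 for Txnrd1, 0.939 for Ier3 and 0.937 for Slc16a6, out of 9001 candidate genes, and over the 8 group means it was 0.967 to 0.984. These libraries share their depth and time groups, so the values describe likeness only. Mdm2, the ubiquitin ligase that holds p53 in check, averaged 214 CPM in KO and 245 CPM in WT at 12 h, against 41.1 CPM in KO and 35.7 CPM in WT at 0 h. Ier3, an immediate early gene, averaged 5.83 CPM in KO and 6.19 CPM in WT at 12 h, against 0.232 CPM in KO and 0.445 CPM in WT at 0 h. Mideas averaged 59.5 CPM in KO and 49.3 CPM in WT at 12 h, against 11.5 CPM in KO and 8.61 CPM in WT at 0 h, and Slc16a6 64.9 CPM in KO and 57.9 CPM in WT, against 2.90 CPM in KO and 2.43 CPM in WT. Txnrd1, a thioredoxin reductase, averaged 162 CPM in KO and 152 CPM in WT at 12 h, against 74.8 CPM in KO and 69.7 CPM in WT at 0 h.

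Bulk RNA cannot tell fewer cells of a type from less RNA per cell, and marker genes of other cell types also differed by 12 h. The summed level of 6 cholangiocyte markers was 34.1 to 126 CPM in KO and 110 to 222 CPM in WT at 12 h, against 19.1 to 20.9 CPM in KO and 19.5 to 25.2 CPM in WT at 0 h. Of these markers 2 were tested, 1 (Sox9) was higher in each genotype, and Krt7 had no counts in WT 12 h livers. The 6 neutrophil markers summed to 2.34 to 3.68 CPM in KO and 3.37 to 6.95 CPM in WT at 12 h, against at most 0.298 CPM in KO and 1.26 CPM in WT at 0 h, and none of them passed the low-count filter of the edgeR test. DESeq2, run without that filter, called S100a8 and S100a9 in KO and S100a8 in WT. The 6 hepatocyte markers summed to 35881 to 40345 CPM in KO and 38445 to 43677 CPM in WT at 12 h, against 26746 to 36080 CPM in KO and 28029 to 32172 CPM in WT at 0 h. The part of these shifts in the level of Myc was not tested. Of the hepatocyte markers, all 6 tested, 1 was higher (Alb) and 1 lower (Hnf4a) in KO and 3 were higher (Ttr, Apoa1 and Alb) in WT. Beside the edgeR counts of markers at 12 h, 15.1% of all tested genes were higher and 13.7% lower in KO. In WT 13.4% were higher and 12.2% lower.

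The D-type cyclins, which partner the G1 kinases Cdk4 and Cdk6, did not pass the test at 12 h. Ccnd2 was at 4.40, 3.68 and 2.79 CPM in KO livers at 12 h, against 4.75, 6.12 and 3.48 CPM at 0 h, and at 3.80, 4.45 and 5.45 CPM in WT livers at 12 h, against 4.64, 4.62 and 4.796 CPM at 0 h. The 12 h ranges overlap the 0 h ranges in both genotypes. The log2 fold change was -0.37 in KO (95% interval -1.0 to 0.27, adjusted p = 0.399, edgeR) and -0.03 in WT (-0.64 to 0.58, adjusted p = 0.961). Neither interval reaches a rise of 1 on the log2 scale.

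Ccnd1, the cyclin most often followed in regenerating liver, needs care. In the unstranded column it had 1 to 14 counts per library. The same libraries hold 454 counts on its own strand and 247 on the opposite strand, against 108 unstranded, a ratio of own-strand to unstranded counts of 4.20. In the GENCODE M21 annotation of GRCm38, a build other than that of the files, 23.4% of the exon bases of Ccnd1 (chromosome 7, minus strand) are overlapped on the opposite strand by LTO1. In STAR's counting, a read that overlaps 2 genes is set aside as ambiguous when strand is ignored.

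On its own strand Ccnd1 could be tested. At 12 h it averaged 3.49 CPM in KO and 2.18 CPM in WT, against 3.24 CPM in KO and 3.74 CPM in WT at 0 h. Its log2 fold change was 0.09 in KO (95% interval -0.65 to 0.84, adjusted p = 0.88) and -0.83 in WT (-1.63 to -0.02, unadjusted p = 0.044, adjusted p = 0.129) in edgeR's quasi-likelihood test on the gene-strand counts. The KO livers at 3 h were the lowest group, at 1.87 CPM (log2 -0.76 from 0 h, adjusted p = 0.218). Ccnd1 did not pass in either genotype at 12 h, where the libraries held 5 to 13 own-strand counts each. Its unstranded CPM followed no other gene closely: the nearest were Dock1, Pms1, Zfp994, H6pd and Bpgm, with r of 0.544 to 0.565 over the 24 libraries.

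**Figure D2:**
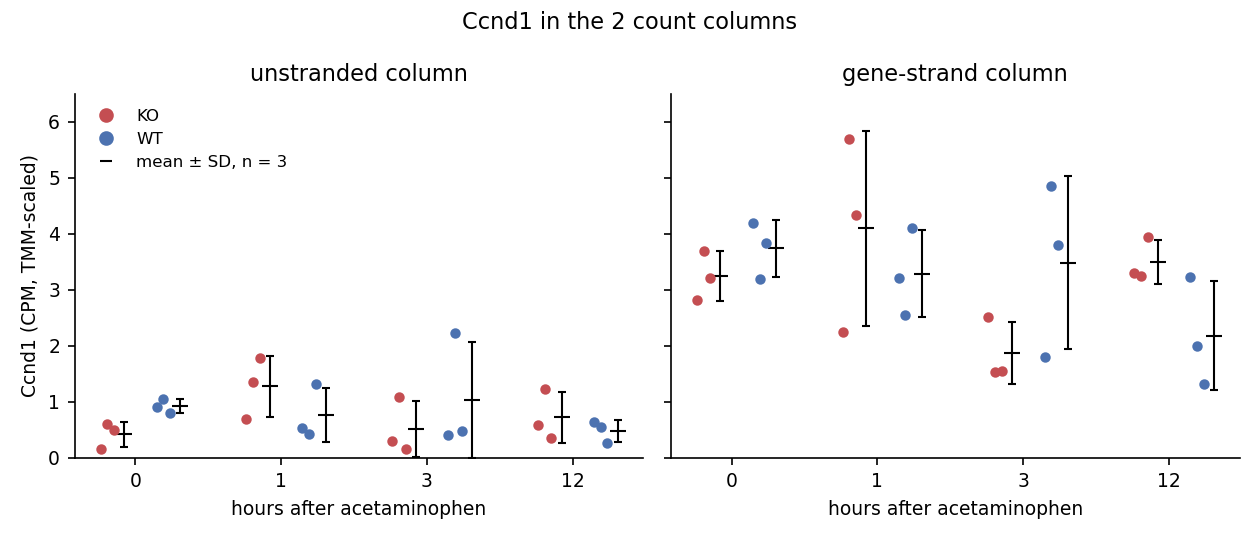
Ccnd1 in CPM (vertical axes) by time in hours (horizontal axes), from unstranded counts in the left panel and from counts on the gene's own strand in the right panel, 1 point per liver, KO left of WT, with mean ± SD of 3 livers. Levels are several times higher on the gene's strand, and the 12 h groups average 3.49 CPM in KO and 2.18 CPM in WT there.

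The E-type cyclins bind Cdk2 at the passage from G1 to S. Ccne1 had 11, 6 and 4 counts in KO livers at 12 h, against 4, 3 and 5 at 0 h, which at the lower depth of 12 h is 3.22, 1.47 and 1.40 CPM against 0.633, 0.448 and 0.621 CPM. The KO ranges do not overlap on the CPM scale. Fitted with no low-count filter, the log2 fold change was 1.69 (SE 0.61, unadjusted p = 0.00536, adjusted p = 0.0523), short of the threshold. Ccne1 passed in KO when genes were kept at 1 CPM or more in any 3 libraries (log2 1.79, adjusted p = 0.0337). The low-count filter also kept it in 22 of the 24 fits that left out 1 library, and in 19 of those its KO change passed. Leaving out a library makes the smallest group smaller, so the filter, run anew in each fit, then asks for fewer libraries with enough counts. Most of the passing fits left out a library of another group, so they test the same KO livers again and add no support. Ccne1 did not pass without KO 0 h replicate 1, 2 or 3 (adjusted p = 0.0642, 0.0901 and 0.0697). It did pass without KO 12 h replicate 2 (log2 2.02, adjusted p = 0.042) or 3 (log2 1.98, adjusted p = 0.0366). Without KO 12 h replicate 1, its highest library, or without WT 3 h replicate 2, the filter did not keep it. Being kept thus rests in part on a liver of the group in which Ccne1 is called. In WT it was at 1.27, 1.11 and 0.259 CPM at 12 h, against 0.516, 0.420 and 0.133 CPM at 0 h, with overlapping ranges and a log2 fold change of 1.15 (adjusted p = 0.524, no filter). In unstranded counts KO lay above WT at 12 h in every liver, by 1.21 on the log2 scale (95% interval -0.06 to 2.48, adjusted p = 0.782, no filter). On its own strand the ranges overlapped, at 1.08 to 2.70 CPM in KO and 0.263 to 1.29 CPM in WT. With 21 summed counts in the KO and 9 in the WT livers at 12 h, the KO call changes with the filter and with the 0 h library left out, and DESeq2 does not make it (log2 1.84, adjusted p = 0.075). At 3 h Ccne1 was at 0, 0.871 and 0.778 CPM in KO and 0.964, 1.83 and 1.26 CPM in WT, all WT livers above all WT livers of 0 h (log2 1.85, adjusted p = 0.0834, no filter).

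Ccne2 was at 3.30, 3.05 and 3.31 CPM in WT livers at 3 h, against 2.32, 1.26 and 1.47 CPM at 0 h. All of the 3 h livers lay above all of the 0 h livers, and the log2 fold change of 0.89 (SE 0.30) passed narrowly, with adjusted p = 0.0416 in edgeR. It was lost with gene-strand counts (log2 0.68, adjusted p = 0.28), with DESeq2 (adjusted p = 0.121), and when any of WT 0 h replicate 2 (adjusted p = 0.132), WT 0 h replicate 3 (0.154), WT 3 h replicate 1 (0.105), WT 3 h replicate 2 (0.064) or WT 3 h replicate 3 (0.110) was left out. This gene had 247 counts on its own strand and 658 on the other. At least 103 of its 350 unstranded counts, 29.4%, are not of its own strand, and Ints8 overlaps it on the opposite strand in the GRCm38 annotation. At 12 h Ccne2 averaged 2.35 ± 0.391 CPM in KO and 2.52 ± 0.583 CPM in WT (SD, n = 3 each), and neither change from 0 h passed (log2 0.11 in KO and 0.55 in WT). At 3 h the KO change was 0.11, and the difference between the KO and WT changes of -0.78 did not pass (adjusted p = 0.647).

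E2f1, the activator of S phase genes, was at 0.586, 0.983 and 1.40 CPM in KO livers at 12 h, against 0.792, 0.149 and 0.497 CPM at 0 h. In WT livers it was at 1.58, 2.50 and 0.778 CPM at 12 h, against 0.644, 1.68 and 0.533 CPM at 0 h. These values rest on 1 to 9 counts each and the ranges overlap. Its log2 fold change of 1.00 in KO (95% interval -0.71 to 2.70) and 0.87 in WT (-0.52 to 2.26) did not pass, and the intervals allow a large rise as well as a fall. Of its strand-assigned counts 73.6% were on its own strand. On that strand E2f1 averaged 0.402 CPM in KO and 1.16 CPM in WT at 12 h, against 0.422 CPM in KO and 0.912 CPM in WT at 0 h, so the KO means at 12 h and 0 h lay close together there, and the gene did not pass the low-count filter in those counts.

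Cdc6 loads the replicative helicase on DNA before S phase, and Mcm2 is a subunit of that helicase. Cdc6 had 1, 0 and 1 counts in KO livers at 12 h, against 1, 1 and 0 at 0 h, and 4, 2 and 2 counts in WT livers at 12 h, against 1, 0 and 1 at 0 h. Pooled over the WT livers this is a ratio of 7.54 after scaling, with a counting interval of 1.51 to 72.9. Without the filter the log2 fold change in WT was 2.61 (SE 1.07, unadjusted p = 0.0148, adjusted p = 0.128). Mcm2 was at 2.05, 1.23 and 0.698 CPM in KO livers at 12 h, against 0.792, 0.149 and 0.621 CPM at 0 h, and averaged 0.643 CPM in WT at 12 h, against 0.587 CPM at 0 h. Its log2 fold change without the filter was 1.23 in KO (adjusted p = 0.291) and 0.16 in WT (adjusted p = 1).

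**Figure D3:**
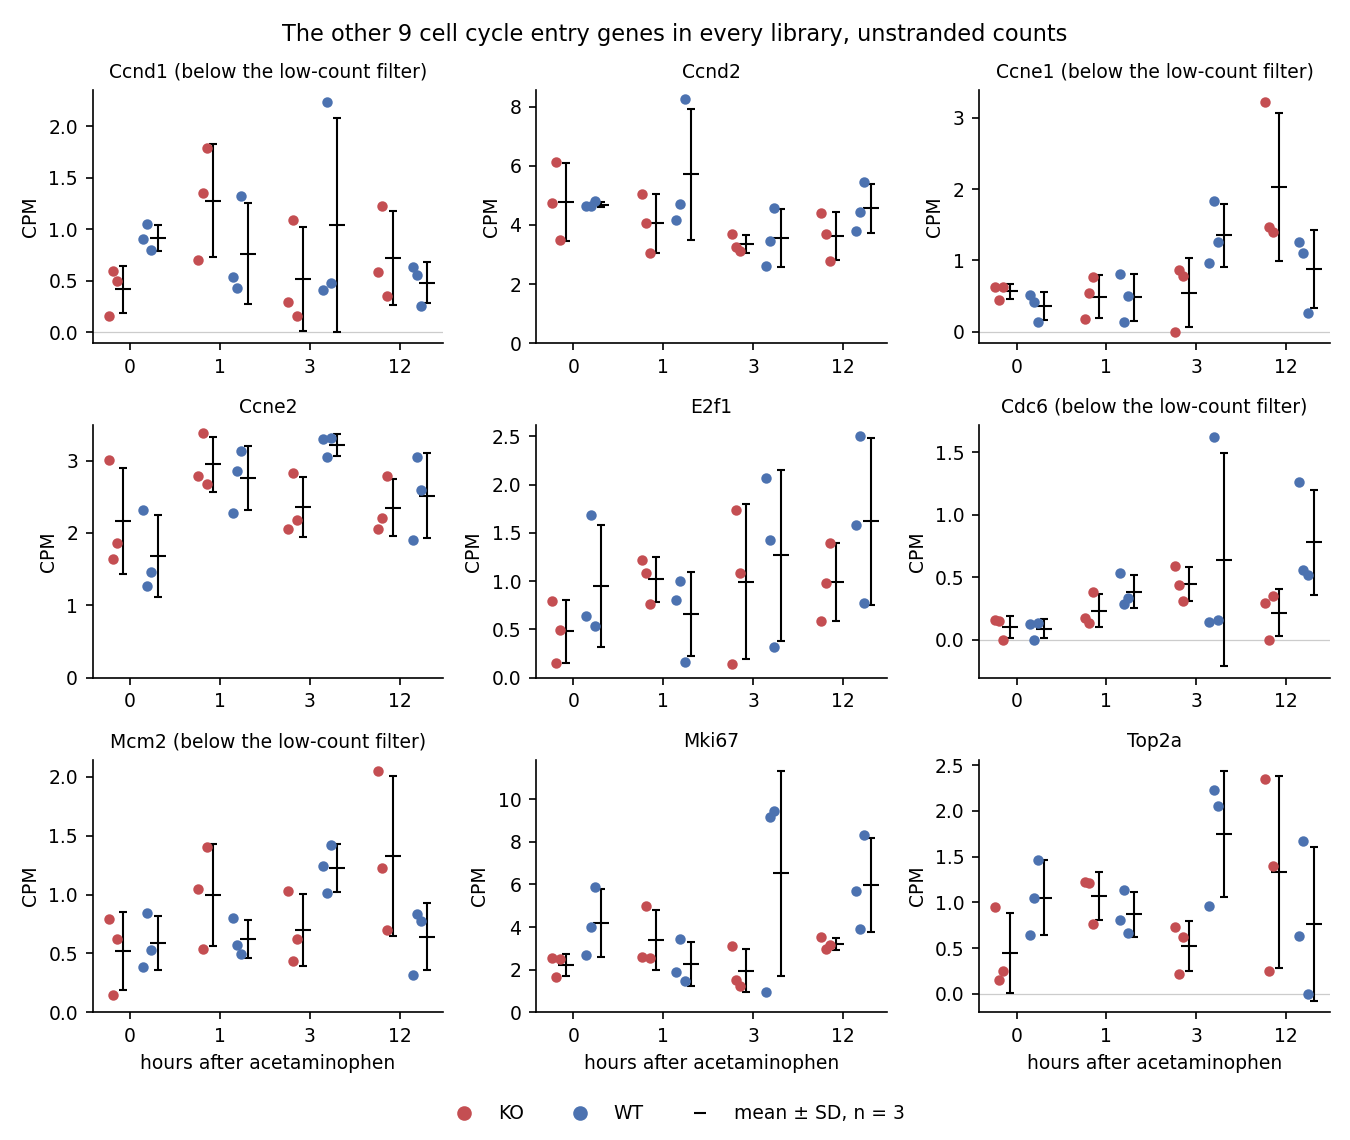
CPM (vertical axes, each with its own scale) of the 9 genes other than Myc by time in hours (horizontal axes), from unstranded counts, 1 point per liver, KO left of WT, with mean ± SD of 3 livers. None of the panels has the step at 12 h that Myc shows, and the panels marked as below the low-count filter rest on few counts per liver.

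Mki67 and Top2a mark cells that are cycling. Their promoters are shown because the genes were the pair of late-cycle readouts among the 10 and because RefSeq promoter sequence was at hand for both. The 250 bases before the RefSeq start of each gene are given 5′ to 3′ on the gene's strand, with the CCAAT motif, read on either strand, in capitals. They lie at chr7:135716380-135716629 (minus strand) for Mki67 and chr11:99024190-99024439 (minus strand) for Top2a, in GRCm38.p6.
Mki67: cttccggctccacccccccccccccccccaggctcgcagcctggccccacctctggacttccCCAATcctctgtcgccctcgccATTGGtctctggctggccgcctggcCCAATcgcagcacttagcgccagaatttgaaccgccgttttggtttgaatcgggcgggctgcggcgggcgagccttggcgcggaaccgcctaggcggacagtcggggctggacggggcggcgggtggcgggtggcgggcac
Top2a: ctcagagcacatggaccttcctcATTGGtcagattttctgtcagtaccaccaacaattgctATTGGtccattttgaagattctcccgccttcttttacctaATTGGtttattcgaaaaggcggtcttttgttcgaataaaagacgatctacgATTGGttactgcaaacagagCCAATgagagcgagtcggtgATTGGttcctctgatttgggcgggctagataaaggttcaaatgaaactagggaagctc

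CCAAT occurs 3 times in the Mki67 stretch and 6 times in the Top2a stretch, counting both strands, and 33.9% of 32851 mouse promoters of this length hold it at least once. The CHR motif of late cell cycle genes, searched as TTTGAA or TTCGAA on both strands, occurs in both stretches and in 17.1% of all promoters. Since TTCGAA reads alike on both strands, each of its places counts for both. The E2F motif, searched as TTNNCGC with each N a C or a G, occurs once in the Mki67 stretch, not in the Top2a stretch, and in 7.89% of all promoters. A match describes the letters and is not a bound site. The promoter table held 6 of the 10 genes.

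At 12 h Mki67 was at 3.52, 2.95 and 3.14 CPM in KO livers, against 2.53, 1.64 and 2.48 CPM at 0 h. In WT livers it was at 5.69, 3.89 and 8.30 CPM at 12 h, against 2.71, 3.99 and 5.86 CPM at 0 h. The KO ranges were apart and the WT ranges overlapped, and neither change passed, with log2 fold changes of 0.52 in KO (95% interval -0.93 to 1.97, adjusted p = 0.622) and 0.51 in WT (-0.66 to 1.69, adjusted p = 0.555, edgeR). Top2a was at 2.34, 0.246 and 1.40 CPM in KO livers at 12 h, against 0.95, 0.149 and 0.248 CPM at 0 h, and at 0.633, 1.67 and 0 CPM in WT livers at 12 h, against 0.644, 1.05 and 1.47 CPM at 0 h. All of these ranges overlap. Its log2 fold change of 1.52 in KO did not pass (adjusted p = 0.142) but did without KO 0 h replicate 1 (log2 2.52, adjusted p = 0.0487) or without KO 12 h replicate 2 (log2 2.09, adjusted p = 0.0478), and in WT it was -0.46 (adjusted p = 0.7).

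The widest scatter of Mki67 was among the WT livers at 3 h, at 0.964, 9.14 and 9.47 CPM, against which the KO livers at 3 h were at 3.09, 1.52 and 1.24 CPM. WT replicates 2 and 3 lay above every other library of the series and WT replicate 1 lay below every other one. Top2a at 3 h was at 0.736, 0.218 and 0.622 CPM in KO and 0.964, 2.23 and 2.05 CPM in WT, all KO livers below all WT livers. The log2 differences of KO from WT at 3 h were -1.64 for Mki67 (unadjusted p = 0.0122, adjusted p = 0.286) and -1.57 for Top2a (unadjusted p = 0.0212, adjusted p = 0.348), and neither passed in edgeR. Without WT 3 h replicate 1 the Mki67 difference was -2.20 and passed (adjusted p = 0.000222). In that fit WT Mki67 at 3 h was above 0 h (log2 1.15, adjusted p = 0.0189, edgeR), a value that rests on WT 3 h replicates 2 and 3. With WT 3 h replicates 2 and 3 left out, WT Mki67 at 3 h had a log2 value of -2.10 against 0 h, but that arm is then 1 liver, the lowest of the series, assumed to vary like the other groups, so the value describes that liver.

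In the WT livers at 3 h the marker sums of erythroid cells, Kupffer cells and neutrophils were lowest in replicate 1, as Mki67 was. Among the KO livers at 3 h the erythroid sum did not keep the order of Mki67, while the other sums did. The summed level of 6 erythroid markers was 55.2, 59.3 and 42.2 CPM in KO 3 h replicates 1, 2 and 3, against 80.1, 254 and 332 CPM in WT 3 h replicates 1, 2 and 3. Of 5 erythroid markers tested, 3 (Hba-a1, Hbb-bs and Hbb-bt) were lower in KO than in WT at 3 h, beside 0.651% of all tested genes. The 6 Kupffer cell markers summed to 54.0, 46.8 and 40.9 CPM in these KO livers and 49.1, 83.7 and 121 CPM in these WT livers. The 6 neutrophil markers summed to 1.62, 0.654 and 0.622 CPM in KO and 1.24, 3.86 and 4.58 CPM in WT. Their part in the Mki67 values was not tested.

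Counted over the 10 genes, 6 of them tested, 1 was higher and 0 were lower at 12 h than at 0 h in each genotype, Myc both times. Of all 13204 genes tested, 28.8% changed in KO and 25.6% in WT in this comparison, and 15.1% in KO and 13.4% in WT were higher. The share of 1 in 6 is near that background. From 3 h to 12 h, where 12.9% of all genes changed in KO (7.84% higher) and 12.8% in WT (7.43% higher), 1 of 6 was higher in each genotype, again Myc. At 3 h against 0 h, 0 of 6 passed in KO and 1 (Ccne2) in WT, with 9.95% of all genes called in KO and 14.1% in WT (7.28% higher). At 1 h against 0 h, 0 of 6 passed in either genotype, with 7.58% of all genes called in KO and 8.09% in WT. In edgeR's quasi-likelihood test 0 genes in KO and 1 gene in WT (Ccne2) had an unadjusted p under 0.05 at 1 h, and 0 in KO at 3 h. DESeq2 called 0 of the 10 in all 1 h and 3 h comparisons with 0 h, and only Myc at 12 h. The 3 comparisons of a genotype with 0 h share their 0 h livers. With scaling by library size alone, which moved the median of all genes by -0.25 in KO and -0.36 in WT at 12 h, 1265 of 4801 called genes in KO and 939 of 5324 in WT were higher, against 1989 of 3802 and 1772 of 3381 with TMM.

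Ranges at 12 h and 0 h were apart for 3 of the 10 in KO (Myc, Ccne1 and Mki67, all higher at 12 h). In WT they were apart for 3 (Myc and Cdc6, higher, and Ccnd1, lower). Beside these stand the 41.1% of all tested genes in KO and 39.9% in WT given above. Such shares are over genes that passed the low-count filter, while the counts include Ccnd1, Ccne1, Cdc6 and Mcm2, which did not. At 1 h against 0 h the ranges were apart for 2 in KO (Ccnd1 and Mki67, higher), beside 26%. In WT at 1 h they were apart for 2 (Cdc6, higher, and Myc, lower), beside 24.7%. At 3 h against 0 h they were apart for 1 in KO (Cdc6, higher) and 5 in WT (Ccne1, Ccne2, Cdc6 and Mcm2, higher, and Ccnd2, lower), beside 30.8% of all tested genes in KO and 28.6% in WT. Of these WT changes at 3 h, that of Ccne2 alone passed the test. Between KO and WT they were apart for 2 of the 10 at 0 h (Ccnd1 and Mki67, lower in KO), beside 14.4% of all tested genes, and for 0 at 1 h, beside 14.9%. They were apart for 3 at 3 h (Ccne1, Ccne2 and Top2a, lower in KO), beside 15.5%. At 12 h they were apart for 3 (Ccne1, higher in KO, and Cdc6 and Mki67, lower in KO), beside 14.5%. All these ranges are of unstranded counts. On the gene's own strand the genotype ranges overlapped for Ccnd1 at 0 h, Ccne2 at 3 h and Ccne1 at 12 h. The ranges against 0 h overlapped there for Ccnd1 (KO at 1 h, WT at 12 h), Mki67 (KO at 1 h) and Ccne2 (WT at 3 h). The others named stayed apart.

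Between the genotypes 0 of 6 passed in edgeR at any time, with 0.0151% of all genes called at 0 h, 0.492% at 1 h, 0.977% at 3 h, 0.053% at 12 h and 0% for the average of the 4 times. An unadjusted p under 0.05 was found for 0 of 6 at 0 h, 1 at 1 h (Myc), 2 at 3 h (Top2a and Mki67), 0 at 12 h and 2 for the average (Myc and Mki67), and DESeq2 called 0. Tests of whether the change since 0 h differed between KO and WT gave 0 calls and 0 unadjusted p under 0.05 at 1, 3 and 12 h in edgeR, with 0.454%, 0.151% and 0.0227% of all genes called, and DESeq2 called 0. DESeq2 gave an adjusted p to 0, 1, 4 and 1 of the 10 genes between genotypes at 0, 1, 3 and 12 h. The median log2 fold change of the 6 tested genes at 12 h was 0.76 in KO and 0.53 in WT, beside -0.0029 in KO and -0.011 in WT over all tested genes. These are medians of the genes that passed the filter, not of all 10.

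**Figure D4:**
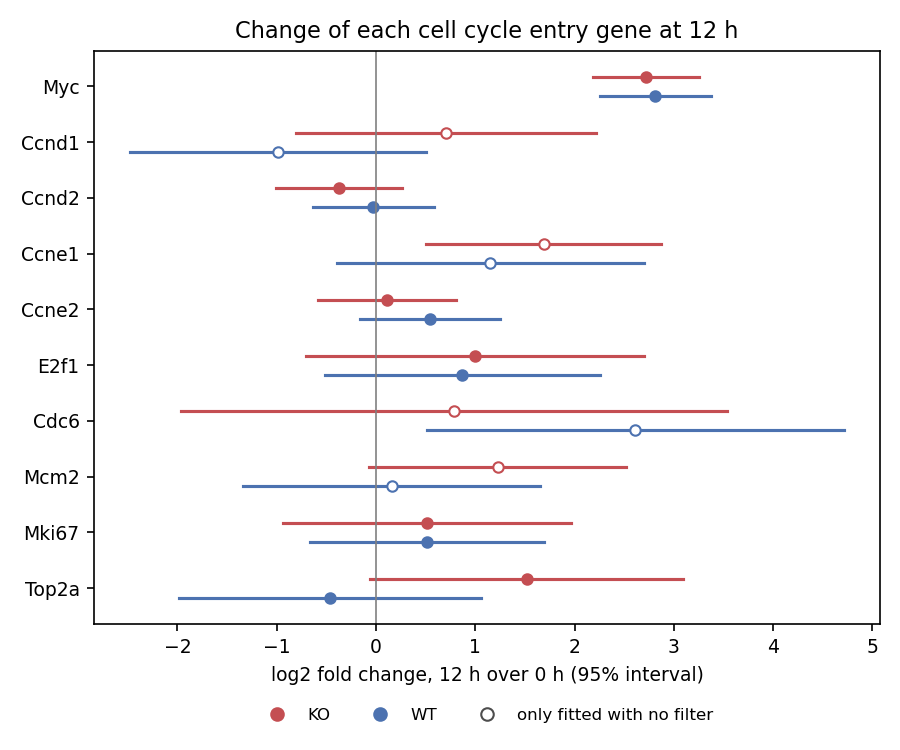
Log2 fold change from 0 h to 12 h (horizontal axis) with its 95% interval for each of the 10 genes (rows), KO above WT. Filled points passed the low-count filter and open points were fitted only with no filter. Both Myc intervals lie wholly above 2, and those of Cdc6 are the widest.

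Lists of the G1, S, G2 and Myc machinery give the other genes of the pathway, at 12 h against 0 h. Beside each count of higher genes stand the 15.1% of all tested genes in KO and 13.4% in WT given above, and beside each count of lower genes 13.7% in KO and 12.2% in WT. G1 cyclins and kinases had 0 of 10 higher in either genotype, with 2 lower in KO (Ccng1 and Cdk7) and 1 lower in WT (Cdk6), and list medians of -0.24 in KO and -0.44 in WT. These counts of lower genes are near the shares over all genes. Cdk6, which binds D cyclins, averaged 26.8 ± 5.88 CPM in KO and 24.4 ± 3.22 CPM in WT at 12 h, against 32.8 ± 6.58 CPM in KO and 38.3 ± 2.85 CPM in WT at 0 h (SD, n = 3 each). Its log2 fold change was -0.28 in KO (adjusted p = 0.201) and -0.65 in WT (adjusted p = 0.00344). Ccng1, an atypical cyclin under p53 control, had a log2 fold change of -1.36 in KO (adjusted p = 9.45e-05) and -0.64 in WT (adjusted p = 0.0531). In WT it passed without WT 12 h replicate 2 (log2 -0.80, adjusted p = 0.0472) and with no low-count filter (adjusted p = 0.0014). Cdk7, the kinase that activates other CDKs, had -0.59 in KO (adjusted p = 0.0355). That call was lost without KO 0 h replicate 1, 2 or 3 (adjusted p = 0.0564, 0.0803 and 0.0705) and without KO 12 h replicate 1 or 3 (0.117 and 0.183). Cdc25a, the phosphatase that frees Cdk2, had 1.02 in KO (adjusted p = 0.0589), which passed without KO 0 h replicate 3 (log2 1.43, adjusted p = 0.0251) or KO 12 h replicate 3 (log2 1.23, adjusted p = 0.0331), and -0.09 in WT.

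Among the CDK inhibitors, which hold the cycle in G1, 4 of 8 were tested and Cdkn1a rose in both genotypes. Cdkn1a, the p21 protein gene, averaged 106 ± 6.29 CPM in KO and 104 ± 17.3 CPM in WT at 12 h, against 16.4 ± 9.69 CPM in KO and 7.05 ± 3.24 CPM in WT at 0 h (SD, n = 3 each). The ranges of 12 h and 0 h were apart. The log2 fold change was 2.66 in KO (adjusted p = 3.80e-05) and 3.86 in WT (adjusted p = 2.00e-06, edgeR). Cdkn1b, the p27 gene, fell by 0.64 on the log2 scale in KO (adjusted p = 0.0104), a call lost without KO 0 h replicate 3 (adjusted p = 0.0508) or KO 12 h replicate 1 (0.0574), and had -0.32 in WT (adjusted p = 0.215). Cdkn2c and Cdkn1c did not pass in either genotype. The medians of the 4 were -0.10 in KO and -0.13 in WT.

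Of 14 RB and E2F genes 12 were tested, with 1 higher and 2 lower in KO and 0 higher and 3 lower in WT. The list medians were 0.04 in KO and -0.10 in WT. E2f6, a repressor of the family, had a log2 fold change of -1.08 in KO (adjusted p = 0.00164) and -1.55 in WT (adjusted p = 0.000114). Rbl2, the RB relative p130 of resting cells, had -0.74 in KO (adjusted p = 0.000176) and -0.59 in WT (adjusted p = 0.00159). E2f3 had -0.09 in KO (adjusted p = 0.733) and -0.49 in WT (adjusted p = 0.0368), a call lost with gene-strand counts (adjusted p = 0.0542) and without WT 0 h replicate 1, 2 or 3 (adjusted p = 0.0556, 0.0911 and 0.0597) or WT 12 h replicate 2 or 3 (0.16 and 0.145). E2f8 rose in KO (log2 0.81, adjusted p = 0.0476), a call lost with library size alone (adjusted p = 0.18), DESeq2 (0.128), only the groups compared (0.171) and the replicate block (0.0557), and without KO 0 h replicate 2 or 3 (0.117 and 0.227) or KO 12 h replicate 1 or 2 (0.0656 and 0.447). Of the strand-assigned counts of E2f8 68.5% were on its own strand, and gene-strand counts gave it a log2 fold change of 1.58 in KO (adjusted p = 0.000149) and 0.76 in WT (adjusted p = 0.0737), against 0.23 in WT with unstranded counts.

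Of 28 licensing and S phase genes 20 were tested, with 3 higher (Orc6, Pcna and Mcm3) in KO and 2 higher (Mcm5 and Pcna) in WT, and Mcm10 was lower in both. The list medians were 0.11 in KO and -0.14 in WT. Pcna, the sliding clamp of DNA polymerases, which also serves in DNA repair, averaged 10.4 ± 1.05 CPM in KO and 10.7 ± 2.18 CPM in WT at 12 h, against 4.88 ± 1.57 CPM in KO and 5.40 ± 1.62 CPM in WT at 0 h (SD, n = 3 each), with ranges apart. Its log2 fold change was 1.08 in KO (adjusted p = 0.000888) and 0.97 in WT (adjusted p = 0.00248, edgeR). Mcm5, a helicase subunit, averaged 1.01 CPM in KO and 3.01 CPM in WT at 12 h, against 0.324 CPM in KO and 0.318 CPM in WT at 0 h. Its log2 fold change was 1.49 in KO (adjusted p = 0.224) and 3.23 in WT (adjusted p = 0.00132, edgeR). It had 102 unstranded counts over the 24 libraries, fewer than Ccnd1, Ccne1 or Mcm2, which are called too low to judge. The WT 12 h livers, at 2.50 to 3.37 CPM, lay above every other library, of which the highest was at 1.89 CPM. Passing the low-count filter thus rests on the livers in which Mcm5 is called, and the call gives no separate support for a rise. Mcm10, a replication initiation factor, had -1.09 in KO (adjusted p = 0.00586) and -0.99 in WT (adjusted p = 0.0149). In WT it missed the threshold when WT 0 h replicate 2 (adjusted p = 0.0514) or WT 12 h replicate 2 or 3 (0.0682 and 0.0693) was left out.

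Genes of G2 and mitosis were mostly too low, with 8 of 24 tested. In KO 2 were higher (Cenpe and Nusap1) and 1 was lower (Ccnf), and in WT 0 were higher and 0 lower, with 1 at an unadjusted p under 0.05 in edgeR and 0 called by DESeq2. Nusap1, a spindle protein, averaged 1.86 ± 0.207 CPM in KO and 1.46 ± 0.723 CPM in WT at 12 h, against 0.518 ± 0.19 CPM in KO and 0.932 ± 0.321 CPM in WT at 0 h (SD, n = 3 each). The log2 fold change of 1.78 in KO (adjusted p = 0.012) missed the threshold without KO 0 h replicate 2 (adjusted p = 0.0504) and with no low-count filter (0.0509). Of the strand-assigned counts of Nusap1 67.1% were on its own strand. Cenpe, a kinetochore motor, had 2.07 in KO (adjusted p = 0.0416), which was lost without KO 0 h replicate 1 or 3 (adjusted p = 0.0732 and 0.141) or KO 12 h replicate 3 (0.272), and -1.11 in WT (adjusted p = 0.245). The KO call of Cenpe was also lost with DESeq2 (adjusted p = 0.0735), library size alone (0.0592) and no low-count filter (0.0669). Ccnf, a cyclin of a ubiquitin ligase, had -1.29 in KO (adjusted p = 0.00185) and -0.49 in WT (adjusted p = 0.254). Ccnb2, a mitotic cyclin, did not pass in KO (log2 1.33, adjusted p = 0.0875) except without KO 12 h replicate 1 (log2 1.68, adjusted p = 0.0428), nor in WT (log2 1.17, adjusted p = 0.123). The list medians were 1.00 in KO and -0.04 in WT, and the difference of the genotypes in these medians was not tested. The median log2 difference of KO from WT over the list was -0.89 at 0 h and -0.13 at 12 h, with 0 genes called at either time. The part of the 0 h and 12 h levels in the KO median change was not tested. Cenpe and Nusap1, called higher in KO, averaged more in KO than in WT at 12 h (Cenpe 1.35 CPM against 0.637 CPM).

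Of 12 partners and rivals of Myc 10 were tested, with 2 higher and 1 lower in KO and 1 higher and 2 lower in WT. Mxd1, which competes with Myc for its partner Max, had a log2 fold change of 0.99 in KO (adjusted p = 0.00223) and 1.12 in WT (adjusted p = 0.000302). Mnt, another such repressor, had 0.83 in KO (adjusted p = 0.00992), lost with library size alone (adjusted p = 0.0698) and without KO 0 h replicate 3 (0.0645) or KO 12 h replicate 1 (0.0967). In WT Mnt had 0.65 (adjusted p = 0.0595), which passed without WT 12 h replicate 1 (adjusted p = 0.0294). Mxd4 had -0.47 in KO (adjusted p = 0.00422) and -0.31 in WT (adjusted p = 0.0649), and that WT value passed without WT 0 h replicate 1 (adjusted p = 0.0364). Mga had -0.25 in KO (adjusted p = 0.156), which passed without KO 12 h replicate 2 (adjusted p = 0.042), and -0.53 in WT (adjusted p = 0.00352). Mycl was the other gene lower in WT. The list medians were 0.0082 in KO and 0.12 in WT.

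Immediate early genes, which come before the D cyclins, were high at 12 h. Of 14 priming and growth factor genes, all tested, 7 were higher in each genotype, Jun, Egr1, Fos and Socs3 among them, with 2 lower in KO (Met and Il6ra) and 3 lower in WT (Tgfa, Met and Il6ra). Already at 1 h 3 of the 14 (Egr1, Fos and Jun) were higher than at 0 h in each genotype, beside 3.95% of all tested genes in KO and 4.09% in WT. At 1 h 2 were lower in KO (Socs3 and Met) and 1 in WT (Il6ra), beside 3.64% and 4%. Jun then averaged 216 CPM in KO and 219 CPM in WT, and Egr1 188 CPM in KO and 200 CPM in WT. Jun averaged 451 ± 49.4 CPM in KO and 462 ± 58.4 CPM in WT at 12 h, against 11.3 ± 3.20 CPM in KO and 10.1 ± 2.67 CPM in WT at 0 h (SD, n = 3 each). Egr1 averaged 622 ± 65.5 CPM in KO and 569 ± 122 CPM in WT at 12 h, against 7.71 ± 6.14 CPM in KO and 5.96 ± 1.76 CPM in WT at 0 h (SD, n = 3 each). Fos had a log2 fold change of 6.84 in KO (adjusted p = 1.60e-09) and 8.08 in WT (adjusted p = 3.03e-10), and Socs3, the brake on Stat3 signalling, had 3.14 in KO (adjusted p = 6.94e-11) and 4.21 in WT (adjusted p = 1.06e-12, edgeR). The list medians were 0.63 in KO and 0.65 in WT.

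**Figure D5:**
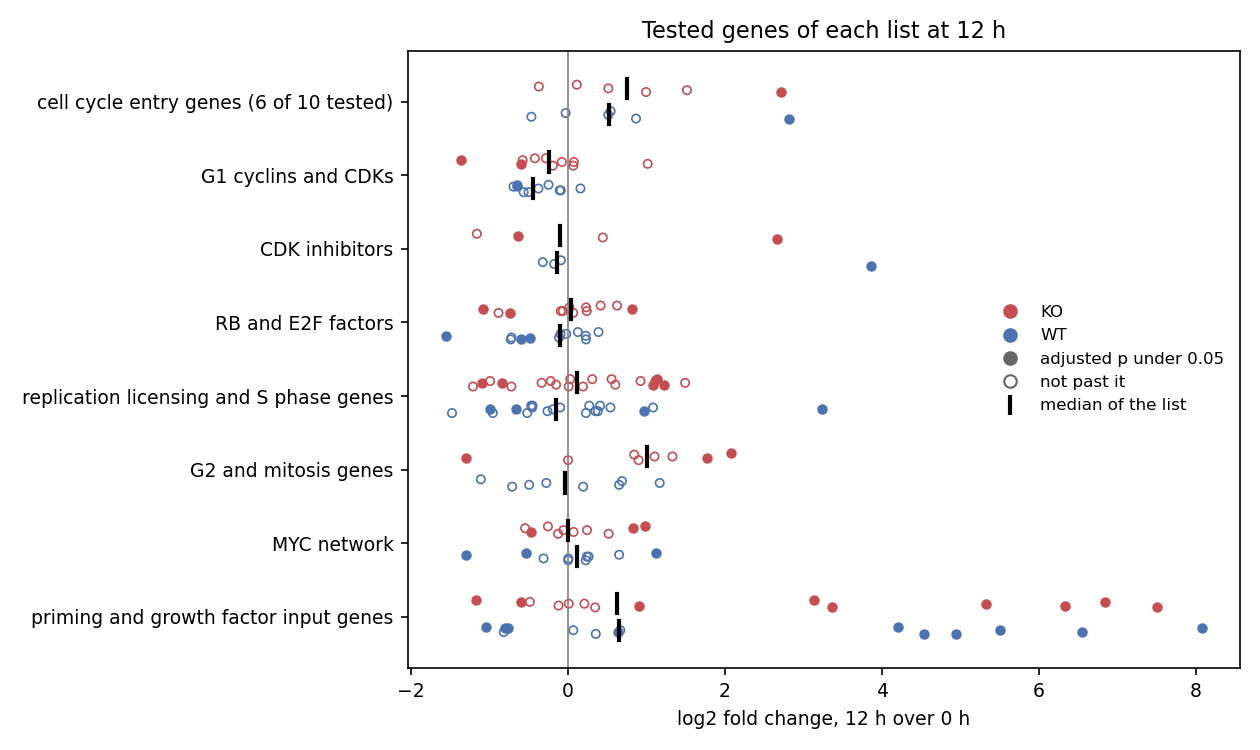
Log2 fold change from 0 h to 12 h (horizontal axis) of every tested gene in each list (rows), KO above WT, filled where the adjusted p was under 0.05, with a bar at the list's median. Jun, Egr1, Fos and Socs3 at 3.14 and above lie right of Myc, while the G1 cyclins and kinases lie around or below 0 except Cdc25a in KO at 1.02.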

How the data were processed

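The authors deposited raw counts per gene symbol for each library, made with STAR (version not given) on genome build mm39 per the submitters' processing notes. No source used here gives the gene annotation. Every table has an unstranded column and a column for each strand, and 77.5% to 82.4% of its reads fall in 4 lines that name no gene, which were left out. The unstranded counts were used for the main tests and the gene-strand counts as an alternative.

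Genes were kept by the filterByExpr function (13204 of 50657), scaled by TMM and fitted with 1 mean per group over all 24 libraries in edgeR 4.0.16 (R 4.3.3, limma 3.58.1). The robust quasi-likelihood test was run for 16 comparisons, each adjusted by Benjamini-Hochberg over all genes tested, with a threshold of 0.05. Standard errors are the log2 fold change over the square root of F. DESeq2 1.42.0 was an alternative, and descriptions were made in Python 3.11.15. The procedure was tested on simulated data. Each library is 1 mouse. Replicate pairs had a chi-squared per degree of freedom of 1.59 to 11.3 and r of 0.950 to 0.982, so none was a duplicate.

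The 10 genes and the other lists were chosen with earlier results of these data known. Of each other list, up to 4 genes with the smallest p at 12 h were named, and genes named only to complete a count were chosen after their values were seen. A result of the licensing and S phase list is not reported here. Promoters are from RefSeq on GRCm38.p6, and positions on mm39 are not given.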

Additional observations from a re-analysis of the deposited data

Results flagged for a closer look

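Mki67 at 1 h lay on opposite sides of the 0 h mean in the genotypes, and that difference was then tested. All 3 KO livers at 1 h, at 2.61, 5.00 and 2.55 CPM, lay above the KO mean at 0 h (2.22 CPM), and all 3 WT livers at 1 h, at 1.87, 3.42 and 1.49 CPM, lay below the WT mean at 0 h (4.19 CPM). The mean change of log2(CPM + 1) since 0 h was 1.08 larger in KO than in WT. The fitted log2 difference of the changes was 1.49 and did not pass (adjusted p = 0.559, edgeR). Without the library labelled KO 1 h replicate 1 it was 1.63 (adjusted p = 0.537). The summed level of 6 Kupffer cell markers was 50.6 to 72.8 CPM in KO and 39.0 to 48.2 CPM in WT at 1 h, against 46.3 to 58.9 CPM in KO and 53.6 to 114 CPM in WT at 0 h. Of these markers 0 of 6 in KO and 4 of 6 in WT (Vsig4, Adgre1, Clec4f and Marco) were called at 1 h, all 4 lower. Over all tested genes 3.64% were lower in KO and 4% in WT at 1 h. The median log2 fold changes of the 6 markers were 0.23 in KO and -0.99 in WT. Their part in the Mki67 values was not tested.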

How the results depend on the processing

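Of 265 alternative counts of the 10 genes called, 246 stayed within 1.5 times the main count. In WT at 3 h against 0 h the count of 1 (Ccne2) became 0 with the gene-strand column, library size alone and no filter. It also became 0 with DESeq2, with only the groups compared and with the replicate number as a block (replicate block). With a library left out it ranged from 0 to 1, and without WT 3 h replicate 1 the gene called was Mki67, not Ccne2. In KO at 12 h against 0 h the count of 1 became 2 when genes were kept at 1 CPM in 3 libraries and ranged from 1 to 3 with a library left out. It became 2 in WT at 12 h against 3 h without WT 3 h replicates 2 and 3 together, a fit in which WT 3 h is 1 liver, the lowest in Mki67, assumed to vary like the other groups. The count of 0 between KO and WT became 1 at 1 h with no filter, and ranged from 0 to 1 with a library left out at 1 h, at 3 h and for the average of the times. The average passed for Mki67 without WT 3 h replicate 1 (log2 -0.86, adjusted p = 0.0299). Without WT 3 h replicates 2 and 3 together, Mki67 in WT reversed, to -2.10 at 3 h against 0 h. At 12 h against 3 h it was then 2.61, as the 1 WT 3 h liver left sets both values. The cause was not tested. One by one, 1480 of 1501 alternatives for the 10 genes and 707 of 764 for the other named genes kept their direction and side of the threshold. Library size alone brought 7 changes of other named genes past it, all lower at 12 h. The block changed no other count of the 10 genes. Whether the replicate numbers pair the samples cannot be told from these values. Same-numbered libraries of other groups had correlations of deviations from -0.17 to 0.18. Their mean was 0.0083, against -0.0042 for other numbers, and 13 of 24 libraries correlated best with their own number. Depth limits Ccnd1, Ccne1, Cdc6, Mcm2, E2f1 and Top2a, since 3 counts stand for 0.373 to 1.05 CPM.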
